A study of Mus musculus with 7 samples.

Results

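This account concerns 6 genes that mark layer 6b of the cortex and the persistent subplate: Ccn2, Nxph4, Cplx3, Moxd1, Nr4a2 and Svil. They were found by symbol in the authors' deposited table, and all 6 were among its 17732 listed genes, each under 1 Ensembl ID and each with an adjusted p-value. The libraries were made from polyadenylated RNA of medial prefrontal cortex, taken from male wild-type (WT) mice of the inbred strain 129SvEv, with 3 CFC libraries and 4 SC libraries. It was sampled after retrieval of a remote memory, and the 2 group names are used as the labels give them. The labels give no age and no other allele, agent or time. They do not say whether each library came from 1 animal, so the p-values rest on these libraries and not on animals known to be separate. The table is the authors' own comparison of the groups, it does not say which group is the numerator, and values of single libraries were not analysed here. Each log2 fold change is therefore called positive or negative after its deposited sign, and neither group is named as the higher.

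Layer 6b is the thin sheet of neurons between layer 6 and the white matter. In rodents it holds the survivors of the subplate, a transient population of early-born neurons that guides the first thalamic axons into the cortex. Its adult neurons are mostly glutamatergic, project within the cortex and to the thalamus, and respond to the wake-promoting peptide orexin. Because the layer borders the white matter, its cells are a small share of a piece of cortex, and its markers are few and of low abundance in bulk RNA. Here fewer cells of a type and less RNA per cell cannot be told apart.

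All 6 genes had a positive log2 fold change, and 2 of them, Ccn2 and Nxph4, had an adjusted p-value under 0.05 in the authors' deposited table. The background for that count is low: 0.513% of the 13060 genes with an adjusted p-value were under 0.05, 0.368% with a positive and 0.145% with a negative sign. An unadjusted p-value under 0.05 was held by 5 of the 6, all but Moxd1, against 8.1% of all genes, 4.56% positive and 3.54% negative. The genes are known layer markers that were selected on the deposited fold changes and p-values of this same comparison, so these counts describe the choice and support nothing beyond it. The median log2 fold change was 0.83 for the 6 genes and -0.0017 for all tested genes.

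The genes that encode secreted proteins come first. Ccn2, also called connective tissue growth factor, is a matrix-associated protein of the CCN family and the classic label of layer 6b in the adult mouse. The authors' deposited table lists a mean normalized count of 211 over the libraries and a log2 fold change of 2.10 ± 0.37 (SE here and below), adjusted p = 3.66e-05. This is a 4.28-fold difference with a 95% interval from 2.60-fold to 7.04-fold. Nxph4 encodes a neurexophilin, a secreted glycoprotein of the family that binds the presynaptic receptor alpha-neurexin. For this gene the authors' deposited table holds a mean normalized count of 53.4 and a log2 fold change of 1.98 ± 0.36, adjusted p = 7.25e-05. That is 3.94-fold, with a 95% interval from 2.43-fold to 6.38-fold. By log2 fold change these genes ranked 4 and 5 among the 13060, and by unadjusted p-value also 4 and 5.

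Cplx3, which encodes a complexin, acts inside the nerve terminal. Complexins clamp and promote the fusion of synaptic vesicles by binding the assembled SNARE complex, and Cplx3 is a form best known from retinal ribbon synapses that in cortex marks subplate cells. The authors' deposited table gave a mean normalized count of 194 and a log2 fold change of 1.17 ± 0.32, adjusted p = 0.0537. The difference was 2.26-fold with a 95% interval from 1.46-fold to 3.49-fold, so the interval lies above 1-fold while the adjusted value sits just above the threshold. Adjustment over the 13060 genes alone put it at 0.0486, on the other side.

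Nr4a2, or Nurr1, is an orphan nuclear receptor and transcription factor that marks subplate and claustrum neurons and is also an activity-induced gene. In the authors' deposited table it had a mean normalized count of 185 and a log2 fold change of 0.50 ± 0.18, adjusted p = 0.26. Svil encodes supervillin, a large actin- and myosin-binding protein of the villin and gelsolin superfamily. The authors' deposited table gave it a mean normalized count of 183 and a log2 fold change of 0.35 ± 0.16, adjusted p = 0.522. Moxd1, a copper-dependent monooxygenase related to dopamine beta-hydroxylase, had the lowest value of the 6. It stood in the authors' deposited table at a mean normalized count of 156 and a log2 fold change of 0.23 ± 0.18, adjusted p = 0.922. The 95% interval of Moxd1 ran from -0.13 to 0.59 on the log2 scale, that of Svil from 0.04 to 0.67 and that of Nr4a2 from 0.15 to 0.84.

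**Figure D1:**
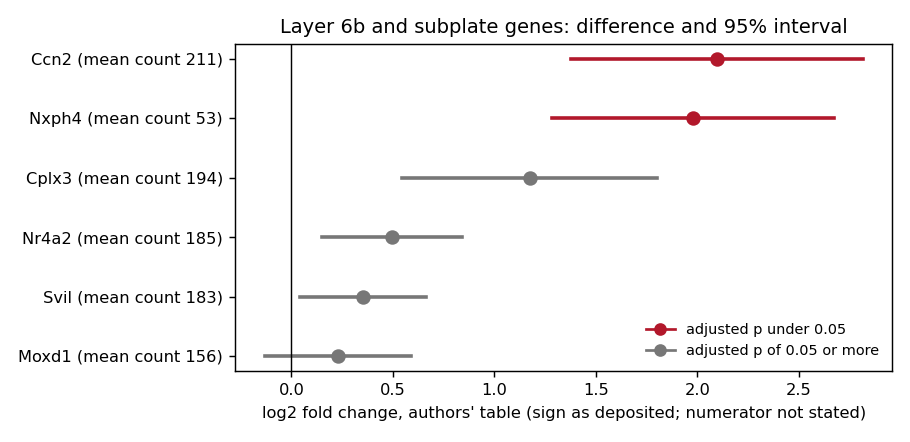
Log2 fold change (horizontal axis, sign as deposited) of the 6 layer 6b and subplate genes, with points for the deposited value and bars for the 95% interval. Ccn2 and Nxph4, in red, are under an adjusted p-value of 0.05, and the intervals of Nr4a2, Svil and Moxd1 end below the point where those of Ccn2 and Nxph4 begin.

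The deposited log2 fold changes of the 6 genes thus ran from 0.23 for Moxd1 to 2.10 for Ccn2. The lower ends of the Ccn2 and Nxph4 intervals, 1.38 and 1.28 on the log2 scale, lie above the upper ends of the Nr4a2, Svil and Moxd1 intervals. The Cplx3 interval, from 0.54 to 1.80, overlaps those of all 5 others. The differences between genes were not tested, because all come from the same 7 libraries and the covariance between genes is not in the table.

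The mean count and the fold change together imply a mean for each group, under the assumption that the fold change is the ratio of the group means. For Ccn2 these are 314 and 73.5 normalized counts if SC is the numerator, and 376 and 87.8 if CFC is. For Nxph4 they are 78.5 and 19.9, or 93.1 and 23.6, so the lower group holds few reads under either reading. For Cplx3 they are 255 and 113, or 285 and 126. For Moxd1 the pair is close, at 167 and 142 or 171 and 145. Nr4a2 has 211 and 150, or 221 and 157, and Svil has 202 and 158, or 209 and 164.

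**Figure D2:**
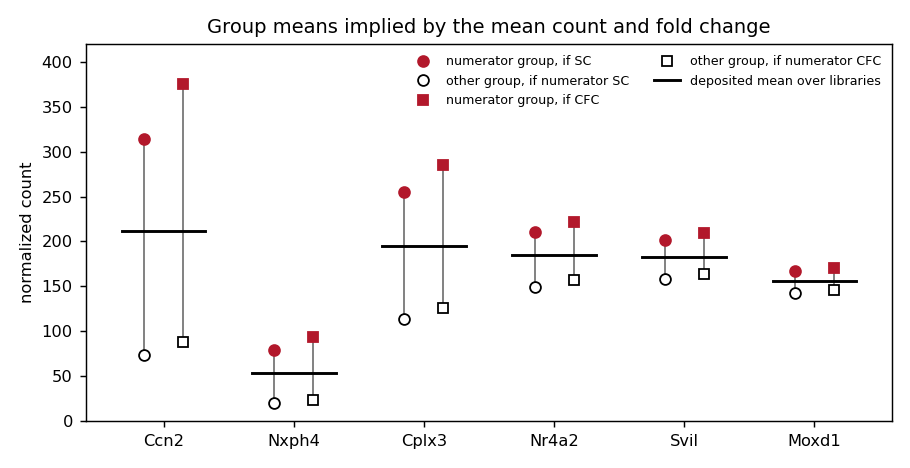
Normalized count (vertical axis) in the numerator group (red) and the other group (white) implied for each gene if SC (circles) or CFC (squares) is the numerator, with the deposited mean over libraries as a bar. The gap is widest for Ccn2 and smallest for Moxd1, and the values are derived from the deposited summary, with no spread over libraries.

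Levels were compared between genes per length of annotated exons. Ccn2 had 73.8 mean normalized counts per kb, Cplx3 65.8, Moxd1 48.9, Nr4a2 45.5, Nxph4 31.9 and Svil 17.1. All 6 lay below the median of 114 per kb of all genes with an adjusted p-value. For comparison, Slc17a7, the vesicular glutamate transporter of cortical excitatory neurons, had 6438 per kb. Ccn2 was first in both level and fold change, while Nxph4, next to it in fold change, was above only Svil in level. No spread over libraries is known for these levels, so neighbours in this order cannot be separated.

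In GENCODE M21 on GRCm38, Ccn2 lies at chr10:24595442-24598683 on the plus strand and Moxd1 at chr10:24223517-24302790 on the same strand, 293 kb apart. The 3 annotated genes between them were not analysed here. Of these 2 neighbours, Ccn2 had the highest and Moxd1 the lowest fold change of the 6 genes. Nxph4 lies far off on the same chromosome, at chr10:127525473-127534559 on the minus strand. Cplx3 is at chr9:57599992-57606281 and Nr4a2 at chr2:57106830-57124003, both on the minus strand. Exons of the antisense gene Gm15270 share 665 bases, 23.2%, of the Ccn2 exons. The strand setting of the counting is not given in the sources used here, so reads from that stretch cannot be assigned to either gene. The exons of the other 5 genes share no base with another annotated gene.

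The promoters of Cplx3, Nr4a2 and Moxd1 are shown, from the RefSeq promoter table for GRCm38.p6. Of the 6 genes 3 are shown. Ccn2 and Nxph4 had no window in that table, and a window for Svil was not analysed here. Each run is the 250 bases before the annotated start, on the gene's strand, at chr9:57606282-57606531 for Cplx3, chr2:57124004-57124253 for Nr4a2 and chr10:24223267-24223516 for Moxd1. Capitals mark TGACG or its reverse complement CGTCA, the half-site bound by CREB, a transcription factor activated by neuronal activity, and CACGTG, the palindromic E-box.
Cplx3: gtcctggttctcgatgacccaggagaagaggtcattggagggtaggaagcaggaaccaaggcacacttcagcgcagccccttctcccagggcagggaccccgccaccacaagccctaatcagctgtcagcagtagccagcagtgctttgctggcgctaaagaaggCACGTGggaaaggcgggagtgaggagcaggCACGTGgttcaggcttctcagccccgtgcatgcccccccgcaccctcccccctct
Nr4a2: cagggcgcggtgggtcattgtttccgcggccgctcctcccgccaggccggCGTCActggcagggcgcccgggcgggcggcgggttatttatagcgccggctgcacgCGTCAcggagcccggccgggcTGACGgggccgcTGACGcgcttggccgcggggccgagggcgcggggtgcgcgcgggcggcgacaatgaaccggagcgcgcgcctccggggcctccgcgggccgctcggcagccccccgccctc
Moxd1: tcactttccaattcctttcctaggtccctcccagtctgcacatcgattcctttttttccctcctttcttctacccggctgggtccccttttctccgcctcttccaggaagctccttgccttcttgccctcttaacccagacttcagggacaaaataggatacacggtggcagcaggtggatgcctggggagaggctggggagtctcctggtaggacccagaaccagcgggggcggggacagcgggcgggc
The Nr4a2 window holds 4 CREB half-sites, 2 on each strand, while the Cplx3 and Moxd1 windows hold none. Of the 32851 windows of the same length that were examined, 17.8% hold at least 1 half-site and 0.137% at least 4. The Nr4a2 window is 80% G and C, against 62.8% for Cplx3 and 58.4% for Moxd1, and the motif itself holds a CG step. The Cplx3 window holds 2 E-boxes and the other windows none, and 0.429% of all windows hold at least 2. The motifs do not overlap each other in these windows, they were chosen after the sequences had been seen, and a match is a description of the letters only.

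Relatives of each gene show how far the pattern followed families. Among the neurexophilins, Nxph3, which is also found in deep-layer and subplate neurons, stood in the authors' deposited table at a log2 fold change of 0.86 ± 0.19, adjusted p = 0.00427. The authors' deposited table put Nxph1, typical of inhibitory neurons, at -0.05 ± 0.09 (adjusted p = 0.999) and Nxph2 at 0.29 ± 0.29 (adjusted p = 0.971).

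In the CCN family Ccn2 was the 1 gene under 0.05 among the 4 with an adjusted p-value. The authors' deposited table gave Ccn1, Ccn3 and Ccn4 log2 fold changes of 0.20, 0.08 and 0.10 (adjusted p = 0.994, 0.999 and 0.999). The 95% intervals of Ccn1, Ccn3 and Ccn4 ended at 0.72, 0.68 and 0.51, below the lower end of that of Ccn2. The authors' deposited table gave no adjusted p to Ccn5 and Ccn6, whose mean counts were 1.87 and 5.50 and whose log2 fold changes were -1.003 and -1.58 (unadjusted p = 0.499 and 0.0416). Ccn1 and Ccn2 are also textbook targets of the YAP and TAZ coactivators, which respond to tension and cell contact. Of the other 6 genes on that list, 4 had an adjusted p-value and none was under 0.05, with a median log2 fold change of 0.14. The lowest was Axl, a receptor tyrosine kinase, at -0.21 (adjusted p = 0.351, unadjusted p = 0.00916 in the authors' deposited table).

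Among complexins, the abundant forms had the opposite sign to Cplx3. The authors' deposited table put Cplx1 at a log2 fold change of -0.12 ± 0.15 (adjusted p = 0.987) and Cplx2 at -0.17 ± 0.06 (adjusted p = 0.187). Of 6 partners in vesicle fusion, none was under an adjusted p-value of 0.05 and 1 was under an unadjusted 0.05, the syntaxin Stx1a. The authors' deposited table put Stx1a, the lowest of the 6, at -0.21 (adjusted p = 0.0884), and the highest, the synaptobrevin Vamp2, at 0.02.

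In the Nr4a family of activity-induced nuclear receptors, Nr4a3 was under the threshold and Nr4a2 was not, although Nr4a2 had the larger value. The authors' deposited table gave Nr4a3 a log2 fold change of 0.42 ± 0.10 (adjusted p = 0.00643) and Nr4a1 one of 0.08 ± 0.10 (adjusted p = 0.994). The 95% interval of Nr4a3, from 0.23 to 0.60, lies within that of Nr4a2, and their difference was not tested. Because Nr4a2 is induced by activity, 9 other immediate-early genes are given beside it. None of the 9 was under an adjusted p-value of 0.05, 3 were positive under an unadjusted 0.05, and their median log2 fold change was 0.09. In the authors' deposited table the highest of the 9 was Egr2 at 1.06 (adjusted p = 0.197) and the lowest Btg2 at -0.08 (adjusted p = 0.998). Egr3, an immediate-early gene outside this list and named after its value had been seen, was lower than Btg2. The authors' deposited table put Egr3 at -0.24 ± 0.08, so changes in this class did not all share the sign of Nr4a2. Whether the value of Nr4a2 goes with the layer or with induction was not tested.

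Nr4a2 also marks the claustrum, a sheet of neurons beside the insular cortex. Of 6 markers of the claustrum and of the related Car3 neurons of layer 6, 5 had an adjusted p-value. All 5 were negative, and their median log2 fold change was -0.13. In the authors' deposited table they ran from Smim32 at -0.31 (adjusted p = 0.917) to Gnb4 at -0.01 (adjusted p = 0.999). None was under an adjusted p-value of 0.05, and 1 of the 5 was under an unadjusted 0.05.

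Of the relatives of Svil and Moxd1 none was under an adjusted p-value of 0.05, and 1, Gsn, was under an unadjusted 0.05. In the villin and gelsolin family 3 other genes were tested. The authors' deposited table put Gsn, which encodes gelsolin and is abundant in oligodendrocytes, at a log2 fold change of 0.69 ± 0.32 (adjusted p = 0.573). Vill stood at -0.23 ± 0.19 (adjusted p = 0.929) and Flii at 0.03 ± 0.07 (adjusted p = 0.999) in the authors' deposited table. For Pam, a copper-dependent monooxygenase that amidates peptides, the authors' deposited table shows -0.12 ± 0.06 (adjusted p = 0.703).

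**Figure D3:**
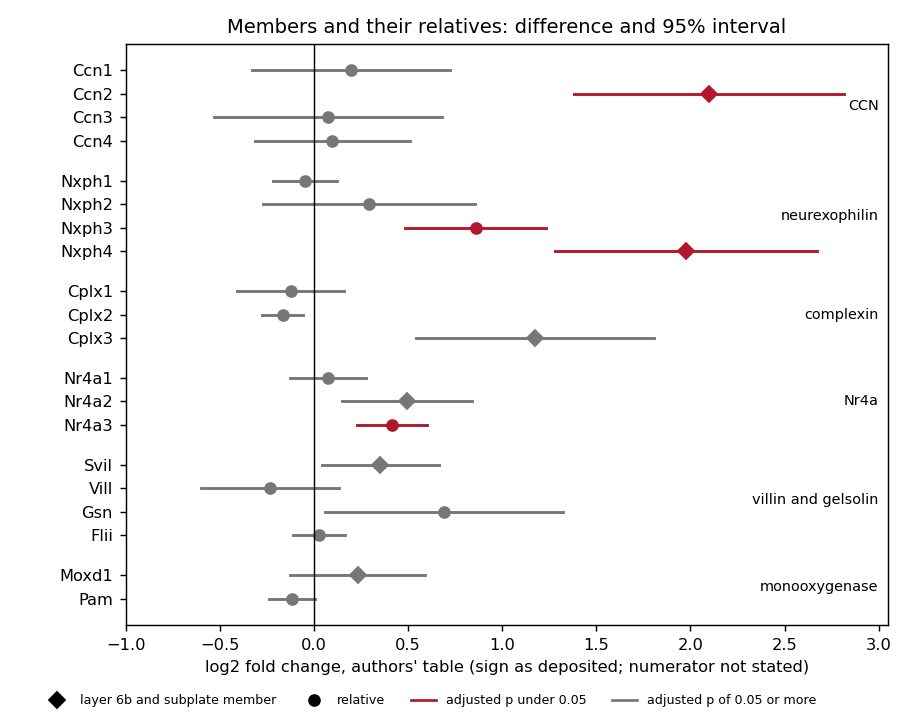
Log2 fold change (horizontal axis, sign as deposited) with its 95% interval for the 6 genes (diamonds) and the relatives that had an adjusted p-value (circles), by family. Of the relatives, Nxph3 and Nr4a3 are under an adjusted p-value of 0.05 (red). The points of the CCN and complexin relatives run from -0.17 for Cplx2 to 0.20 for Ccn1.

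A second list of 10 layer 6b and subplate markers was written with earlier results of these data known, so its sign and its counts are a description and no independent evidence. The 9 analysed here were all positive. The 6 that had an adjusted p-value had a median log2 fold change of 0.68. Nxph3 and the dopamine receptor Drd1 were under 0.05. The authors' deposited table gave Drd1, which is also a defining gene of striatal neurons, a log2 fold change of 0.76 ± 0.13 (adjusted p = 3.66e-05). The highest value was that of Lpar1, a lysophosphatidic acid receptor found in subplate neurons and also in oligodendrocytes. The authors' deposited table put Lpar1 at 0.99 ± 0.52 (adjusted p = 0.679) and the lowest of the 6, the collagen gene Col8a1, at 0.22 ± 0.29 (adjusted p = 0.994). Hcrtr2, the orexin receptor through which layer 6b neurons respond to that peptide, stood at 0.60 ± 0.26 (adjusted p = 0.5), and Tmem163, a zinc transporter, at 0.27 ± 0.14 (adjusted p = 0.688), per the authors' deposited table. No adjusted p was given in the authors' deposited table to Trh, Mup5 and Ly6g6e, whose mean counts were 30.7, 3.78 and 24.4 and whose log2 fold changes were 0.11, 0.17 and 1.07. Hcrtr2, Tmem163 and these 3 are named to account for the list.

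Markers of the other cortical layers were set beside these. The median log2 fold change was -0.27 for 7 upper-layer genes, 0.10 for 6 genes of layer 5, 0.39 for 7 genes of layer 6 corticothalamic neurons, 0.68 for the second layer 6b list and 0.83 for the 6 genes described here. The 6 genes were selected on this same comparison, and all lists were written with earlier results of these data known. The order of the medians is therefore a description, and no test of it was made. Of the corticothalamic genes, all 7 were positive and 3 were under an adjusted p-value of 0.05: the transcription factor Foxp2, the corepressor Tle4 and the sulfotransferase Hs3st4. The authors' deposited table put Foxp2, the highest, at 0.73 (adjusted p = 1.08e-04) and Tbr1, the lowest, at 0.22 (adjusted p = 0.17). Of the layer 5 genes none was under an adjusted 0.05, and 2, Bcl11b and Fezf2, were under an unadjusted 0.05. In the authors' deposited table the layer 5 genes ran from Deptor at -0.06 (adjusted p = 0.999) to Bcl11b at 0.49 ± 0.20 (adjusted p = 0.421). Fezf2, named after its value had been seen, was nearest to the threshold, at 0.28 ± 0.08 (adjusted p = 0.0581). All 7 upper-layer genes were negative, and Rasgrf2 and Otof were under 0.05. The authors' deposited table put Otof, the lowest, at -0.42 (adjusted p = 0.0496, just under the threshold) and Cux1, the highest, at -0.08 (adjusted p = 0.971).

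**Figure D4:**
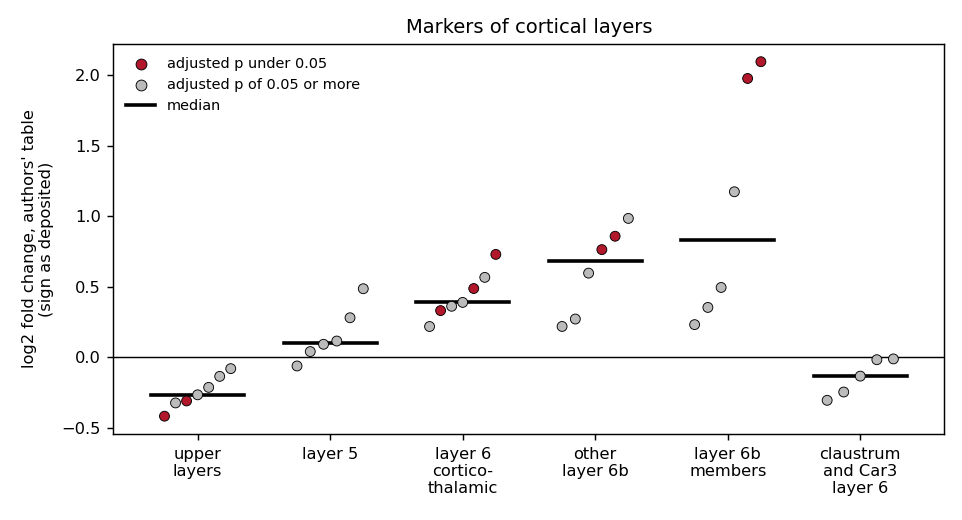
Log2 fold change (vertical axis, sign as deposited) of each marker with an adjusted p-value, by list, with the median as a bar and genes under an adjusted p-value of 0.05 in red. The medians run from -0.27 in the upper layers to 0.83 in the 6 layer 6b genes, within which the values range from 0.23 to 2.10. Those 6 genes were selected on this same comparison, so the order is a description.

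The 6 genes differed in how precisely the fold change was measured. The standard error of Ccn2 was 2.73 times and that of Cplx3 2.31 times the running median of genes of similar mean count. For Nxph4, Nr4a2 and Svil the ratio was 1.41, 1.25 and 1.12, and that of Moxd1 lay between the last 2. The standard error reflects only in part the spread between libraries of a group, which the table does not resolve into libraries. Ccn2 and Cplx3 lie in the sparse band above the main cloud of genes, and Nxph4 at its upper edge.

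**Figure D5:**
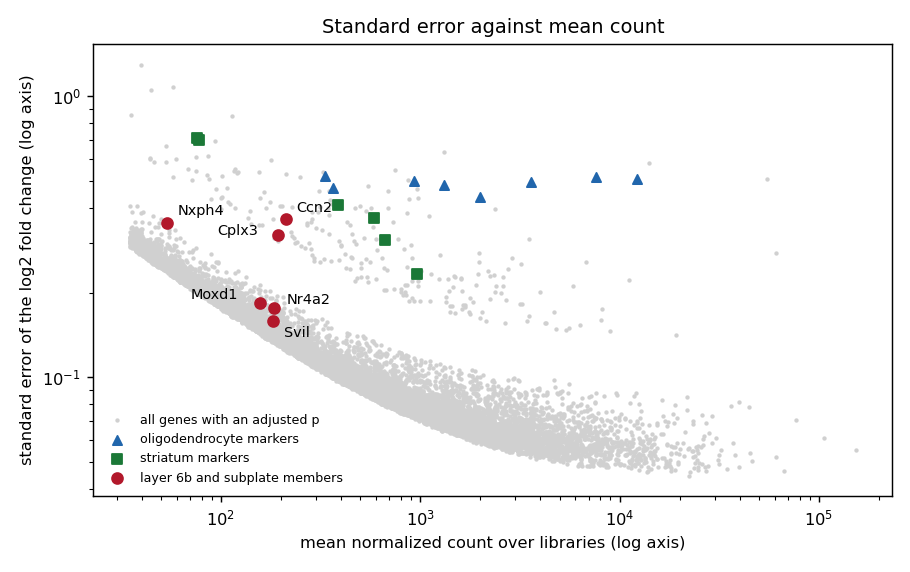
Standard error of the log2 fold change against mean normalized count, both on log axes, for all genes with an adjusted p-value (grey), the 6 layer 6b and subplate genes (red), and markers of oligodendrocytes (triangles) and striatum (squares). Ccn2 and Cplx3 lie above the main cloud, at 2.73 and 2.31 times the running median, and the oligodendrocyte markers lie farther above it.

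Markers of white matter and striatum, which border the deep cortex, had the same sign. All 8 oligodendrocyte genes were positive, with a median log2 fold change of 1.2, none under an adjusted p-value of 0.05 and 8 under an unadjusted 0.05. In the authors' deposited table they ran from Cnp at 0.95 (adjusted p = 0.555) to Mobp at 1.67 (adjusted p = 0.105), and the median of their standard errors over the running median was 6.73. All 6 striatal genes were positive as well, with a median of 0.92, none under an adjusted p-value of 0.05 and 4 under an unadjusted 0.05. The highest was the adenosine receptor gene Adora2a, at 1.95 (adjusted p = 0.286) per the authors' deposited table. No marker of either list was at 0: the mean counts ran from 331 to 12290 for oligodendrocytes and from 76.0 to 959 for striatum. The levels of these lists in each library were not analysed here, and their part in the values of the 6 genes was not tested.

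Ccn2 is also made by vessels and fibroblasts, so 13 markers of mural, fibroblast and endothelial cells were examined. Of the 10 with an adjusted p-value, 6 were positive and 4 were negative. The 4 negative genes were Cldn5, Pecam1 and Flt1 of endothelial cells and Rgs5 of mural cells. The 6 positive genes were Dcn, Col1a1 and Col1a2 of fibroblasts and Acta2, Myh11 and Pdgfrb of mural cells. The median log2 fold change of the 10 was 0.06, over cell types whose signs differed. None was under an adjusted p-value of 0.05, and 1, negative, was under an unadjusted 0.05. The authors' deposited table put the highest of the 10, the collagen gene Col1a1, at 0.47 (adjusted p = 0.819) and the lowest, the endothelial gene Pecam1, at -0.18 (adjusted p = 0.859). Of the 3 genes with no adjusted p-value, the fibroblast gene Slc6a13, named after its value had been seen, was higher than Col1a1, at 0.72 (unadjusted p = 0.0819) with a 95% interval from -0.09 to 1.53. That interval reaches into that of Ccn2, and the part of these cells in the value of Ccn2 was not tested. Markers of cortical excitatory neurons, which check the labelled tissue, were abundant, with mean counts from 2316 to 106077. Of these 4 genes, the kinase gene Camk2a was under 0.05, at -0.29 (adjusted p = 0.00151), and the highest was Neurod6 at 0.02, per the authors' deposited table.

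The genes nearest to Ccn2 and Nxph4 in fold change, among those under an adjusted p-value of 0.05, were St18, Col11a1 and Ppp1r14a. The authors' deposited table gave them log2 fold changes of 1.35, 1.33 and 1.26 (adjusted p = 0.00154, 0.00334 and 0.0408). Without that threshold other genes lay nearer. By log2 fold change Adora2a of the striatal list ranked 6, directly after Nxph4, at 1.95 (adjusted p = 0.286 in the authors' deposited table). Mobp of the oligodendrocyte list ranked 10, at 1.67 (adjusted p = 0.105). The likeness rests on this 1 comparison, since no pattern over libraries was available.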

How the data were processed

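Libraries were prepared with the KAPA mRNA HyperPrep kit from 100 ng of column-purified RNA each, per the labels' protocols. The submitters' processing notes name Trimmomatic, Subread, DESeq2 and mm10, without versions, roles or order. Per the file headers, the authors deposited for each gene a mean normalized count (a signal averaged over libraries), a log2 fold change with its standard error, a Wald score, and an unadjusted and an adjusted p-value. The Wald score equalled the fold change over its error, within 1e-06, in all 17732 genes, and the authors gave 13060 genes an adjusted p-value, down to a mean count of 34.9. The depth of single libraries is unknown.

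The planned count test per library could not be made from such a table, and the authors' DESeq2 values were used, with a threshold of 0.05. Computed here with Python 3.11.15, numpy 2.4.6 and scipy 1.17.1 were 95% normal intervals, Benjamini-Hochberg adjustments over other sets of genes, a test against a change of at most 1.2-fold (2 times the upper tail beyond that bound), counts per kb of merged GENCODE M21 exons, and a running median of standard errors over 501 genes. All of these but the counts per kb were tested on simulated data. The 6 genes and all lists were chosen with earlier results of these data known. Named are the 6 genes, relatives of them, genes under 0.05 and the highest and lowest of each list, and the 3 called genes next in fold change; some items this rule names are not reported here. Hsd17b2, Cplx4, Moxd2 and Scin, also on the lists, were not analysed here.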

Additional observations from a re-analysis of the deposited data

How the results depend on the processing

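Under the 6 alternatives for the adjusted p-value, Ccn2 stayed under 0.05, at 2.84e-05 to 0.00711, and so did Nxph4 in the 5 that test it, at 6.56e-05 to 0.00884. The highest value of each came from a null of at most a 1.2-fold change. All 6 alternatives start from the deposited fold changes, standard errors or p-values, on which these genes were selected. That Ccn2 and Nxph4 stayed under 0.05 is therefore a description and no independent check. Cplx3 crossed from 0.0537 to 0.0486 when adjusted over the listed genes with an adjusted p-value, and to 0.0456 over genes whose mean count reached 100. It reached 0.0493 with standard errors no smaller than those of genes of similar mean count. That setting left the standard errors of all 6 genes unchanged, because each already exceeded the running median. It is therefore no check of their own errors. Cplx3 stayed above 0.05 in the other 3, and its whole range was 0.0456 to 1. In all 3 crossings the unadjusted p-value of Cplx3 was the same, and only the genes or p-values adjusted together with it differed. Which genes the deposited adjustment covered is not stated, and why it differs was not tested. Nr4a2, Svil and Moxd1 stayed above 0.05 in all 6. The 67 genes under the threshold became 21 with Bonferroni, 2 with the 1.2-fold null (Ccn2 and Nxph4) and 101 at a threshold of 0.1, the first 2 stricter and the last looser by construction. At an unadjusted p-value under 0.05, the count went from 2 to 5 for the 6 genes, from 3 to 7 for the corticothalamic list, from 0 to 2 for layer 5 and from 2 to 4 for the upper layers. No paired analysis was possible because single libraries have no values in the table. Likewise, leaving out a replicate, other normalizations and other count tests were not run, and whether 1 library decides a value was not tested.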
